A study of Arabidopsis thaliana with 15 samples.

Results

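PDF2.1, PDF1.2 and AT5G02140 are 3 genes for small secreted proteins of the plant, 2 of them plant defensins and the third a thaumatin-like protein. They were selected on their measured changes over the 5 sampling times of this series, in which PDF2.1 and AT5G02140 were higher and PDF1.2 was lower at the later times. Their own changes are therefore described here without a test. They are 3 of 13286 loci paired with a probe set, the group of array probes that measures 1 transcript, and each has 1. PDF2.1 is locus AT2G02120 and PDF1.2 is AT5G44420. Another 11 defensin genes and 19 thaumatin-like genes were paired with a probe set and serve for comparison.

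The RNA came from leaf disks of 1 mm, cut from rosette leaves of Arabidopsis thaliana seedlings of the ecotype Col-0, 25 days old and grown on MS medium in continuous light at 22 °C. All groups share one induction medium and differ in time. The medium held 2,4-D, a synthetic auxin, at 1.25 mg/L, kinetin, a cytokinin, at 0.25 mg/L, and bikinin, an inhibitor of GSK3 kinases, at 10 µM. The times were 0, 12, 24, 36 and 48 h, with 3 arrays each and 15 in all. No samples cultured without the 3 compounds were analysed here, so the compounds' part in any difference between times cannot be told apart from that of wounding, of being in culture or of time itself. The titles do not say whether the arrays of a time came from separate cultures, so every p-value measures only the spread between these arrays, which may be technical.

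Plant defensins are short peptides held in shape by disulfide bonds between their cysteines. They are made with a signal peptide and secreted, and many slow the growth of fungi. PDF1.2 is the standard marker gene of the response to jasmonate and ethylene, the hormones of defence against necrotrophic fungi, whereas genes of the PDF2 group are often active without infection. Thaumatin-like proteins are larger cysteine-rich proteins of the PR-5 family of pathogenesis-related proteins, named after a sweet-tasting protein of a tropical fruit.

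Signals were on a linear scale and set to a common mean on every array by the authors, so that the median signal of an array lay between 121.8 and 169.9. A probe set was kept for testing where the highest of its 5 geometric group means reached 30.7, the 30th percentile of such means, and 17829 of 22746 were kept. All 3 genes passed this filter, PDF1.2 at each of the 5 times, PDF2.1 only through its means from 12 h on and AT5G02140 only through its means from 24 h on. In bulk RNA, more cells of a type and more RNA per cell cannot be told apart. Of 12 listed photosynthesis genes of the leaf's mesophyll, 5 were measured (LHCB4.1, LHCB4.2, PRK, PSAN and RCA). All 5 were called lower at each later time, where 21.9% to 23.9% of all probe sets kept were called lower. The summed signal of the 5 genes lay between 2837 and 5655 at 48 h, against 122228 and 167524 at 0 h. The 4 measured of 18 listed xylem genes (GUT2, IRX15, IRX15-L and SCPL48) were called higher at 36 and 48 h, where 32.3% and 33.3% of all rose. IRX15 passed the filter only through its 36 and 48 h means, so that selection favoured its rise at these times. The sums of the 4 genes were 9659 to 12646 at 48 h against 843 to 912 at 0 h. SCPL48 alone made up most of each sum (5481, 9287 and 9428 at 48 h, against 549.8, 540.8 and 545.2 at 0 h). Of 4 listed phloem genes 2 were measured, and SWEET11 was called lower and OPS higher at each later time. FMA, the 1 measured of 2 listed guard cell genes, was called lower at 48 h. Its call at 36 h was lost in 4 fits with 1 array fewer. IRX15 was below the limit of the filter on every array of 0 and 12 h and on 24 h replicate 1. The other markers named here were above it on every array. The part of these cell types in the values below was not tested.

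PDF2.1, a defensin of the PDF2 group, was near the bottom of the signal range in fresh disks and among bright signals after 48 h. Its signals were 4.09, 12.4 and 10.6 on the 3 arrays of 0 h. They were 166, 465 and 606 at 12 h and 193, 1109.7 and 1169.7 at 24 h. They were 826, 4649 and 6585 at 36 h, and 1701, 9314 and 13031 at 48 h. Each of the 12 later arrays was above every 0 h array, and at each time, 0 h included, replicate 1 had the lowest signal of its group.

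The geometric mean of PDF2.1 was 360.5 at 12 h, against 8.14 at 0 h, a log2 difference of 5.47. Later log2 differences from 0 h were 6.28 (24 h), 8.49 (36 h) and 9.51 (48 h), the last a 727-fold higher geometric mean (SD of log2 signals 1.58 at 48 h and 0.87 at 0 h, n = 3 each). Between neighbouring times the ranges of the 3 arrays did not overlap for 0 and 12 h, but did for 12 and 24 h, for 24 and 36 h and for 36 and 48 h. Between arrays of the same number, however, PDF2.1 was higher at the later time in 3 of 3 pairs for 24 against 12 h and in 2 of 2 numbered pairs for each of the other steps. At 48 h all 3 arrays were above those of 12 h, by a factor of 10.2, 20.0 and 21.5 between arrays of the same number and 16.4 between geometric means. As all 0 h signals of PDF2.1 were below the 30.7 of the filter, the size of its difference from 0 h depends on how dim signals are treated. With every signal below the filter's limit raised to it, an alternative chosen after the data were seen, the log2 difference at 48 h was 7.59.

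AT5G02140, the thaumatin-like gene, was at very low signals at 0 and 12 h and higher on most arrays from 24 h on. Its signals were 1.5, 0.93 and 2.71 at 0 h and 3.87, 4.82 and 8.82 at 12 h. They were 76.1, 7.87 and 58.9 at 24 h, 1344, 199.9 and 170.7 at 36 h, and 1806, 417 and 861 at 48 h. Every array of 0 and 12 h and 1 of 3 at 24 h were below the limit of 30.7, and all 6 arrays of 36 and 48 h were above it.

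The geometric mean of AT5G02140 was 866 at 48 h, against 1.56 at 0 h, a log2 difference of 9.12 (SD 1.06 at 48 h and 0.77 at 0 h, n = 3 each). The earlier log2 differences from 0 h were 1.81 (12 h), 4.40 (24 h) and 7.84 (36 h). The ranges of the arrays did not overlap between 0 and 12 h or between 24 and 36 h, and they overlapped between 12 and 24 h and between 36 and 48 h. Every same-number pair was higher at the later time (3 of 3 for 24 against 12 h, 2 of 2 for 36 against 24 h and for 48 against 36 h). Against 12 h, the 48 h arrays were higher by a log2 difference of 7.30, with no overlap. With signals raised to the limit of the filter, the log2 differences of the 4 later times were 0, 0.75, 3.54 and 4.82 in order of time. The difference between 12 and 0 h was thus one between signals that were all under that limit.

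PDF1.2, the jasmonate and ethylene marker, differed from the other 2 genes in direction and in where its spread lay. At 0 h its signals were 3909, 935 and 80.0, a span of 48.9-fold between arrays of one group. They were 143.6, 176.0 and 114.1 at 12 h and 69.9, 127.3 and 96.4 at 24 h. They were 55.3, 66.8 and 109.5 at 36 h, and 18.5, 57.0 and 84.0 at 48 h. The later arrays lay close together, while the 0 h arrays lay far apart, and 0 h replicate 3 fell within the range of the later times.

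The geometric mean of PDF1.2 was 44.6 at 48 h, against 664 at 0 h, a log2 difference of -3.90 (SD 1.14 at 48 h and 2.84 at 0 h, n = 3 each). The log2 differences of 12, 24 and 36 h from 0 h were -2.22, -2.80 and -3.17, and at all 4 later times the arrays overlapped those of 0 h. Between neighbouring times, too, the ranges overlapped throughout, although from 12 h on every same-number pair was lower at the later time (3 of 3 for 24 against 12 h, then 2 of 2 and 2 of 2). These sizes rested on single 0 h arrays. Without 0 h replicate 1 the log2 difference was -0.94 at 12 h and -2.62 at 48 h, and without 0 h replicate 3 it was -3.75 at 12 h and -5.42 at 48 h. At 24 h the values without these arrays were -1.53 and -4.33, and at 36 h they were -1.89 and -4.69. The comparison of 48 h with 12 h does not use the 0 h arrays. There all 3 arrays of 48 h were below all 3 of 12 h, with a log2 difference of -1.68, or -1.04 without 48 h replicate 1.

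**Figure D1:**
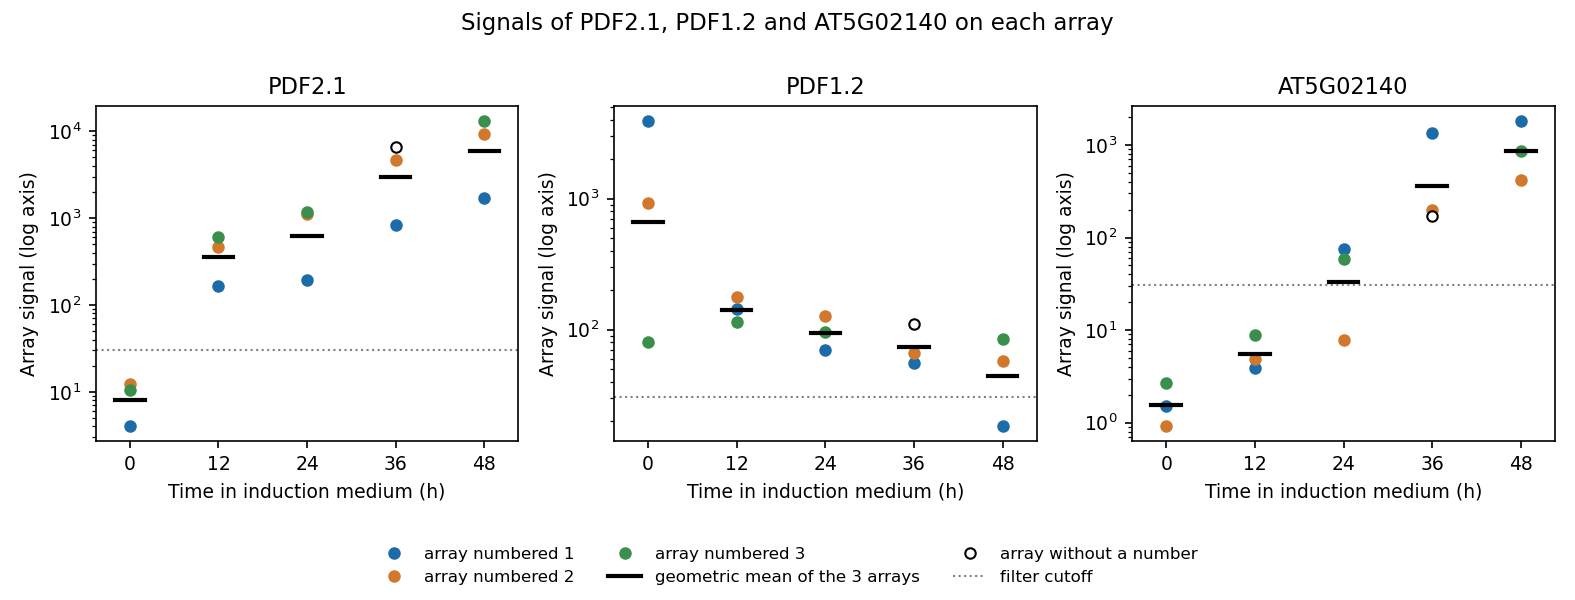
Signals of PDF2.1, PDF1.2 and AT5G02140 (log axis) at 0, 12, 24, 36 and 48 h. Each point is 1 array, coloured by the replicate number in its title (open for the 36 h array without a number), bars are geometric means of 3 arrays, and the dotted line is the filter limit of 30.7. PDF2.1 ends between 1701 and 13031 and AT5G02140 between 417 and 1806 at 48 h, while PDF1.2 lies between 18.5 and 84.0 at 48 h and spans 80.0 to 3909 at 0 h.

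Separation of the later arrays from those of 0 h was common. All 3 arrays of the later time were above all 3 of 0 h for 25.3% of the probe sets kept at 12 h, for 30% at 24 h, for 34.4% at 36 h and for 35.4% at 48 h. PDF2.1 and AT5G02140 belonged to these at each time. All 3 arrays of 48 h were above all 3 of 12 h for 26.1% of the probe sets, which included the same 2 genes, and below them for 18.6%, which included PDF1.2. Since the genes were chosen by these changes, nothing is read from their membership.

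Array number and the levels of PDF2.1 moved together. Its replicate 1 arrays were the lowest of 3 at all 4 later times, as were those of 1372 probe sets (7.70% of the 17829 kept). At 0 h, too, replicate 1 of PDF2.1 was the lowest (4.09, against 12.4 and 10.6), with all 3 signals under the limit of the filter. For AT5G02140 replicate 1 was instead the highest at 24, 36 and 48 h and the lowest at 12 h. For PDF1.2 it was the lowest at 24, 36 and 48 h. The number of an array is given in its title only, and the labels do not say what it marks.

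The gene table of the TAIR10.1 assembly places PDF2.1 in a row of defensin genes. PDF2.3 (LCR68) is the next gene after it, PDF2.2 (LCR69) lies 3 genes before it and PDF2.6 (LCR72) 4 genes after it. PDF2.2 was bright throughout. Its signals were 4353, 2296 and 3889 at 0 h, 2509, 1539 and 2142 at 12 h, and 4499.6, 4348 and 2823 at 24 h. They were 7588, 8495 and 7563 at 36 h and 5719.8, 9861 and 10694 at 48 h. All arrays of 36 and 48 h were above those of 0 h.

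In limma's moderated test over all probe sets kept, PDF2.2 rose by a log2 difference of 1.22 ± 0.32 (SE, adjusted p = 0.0061) at 36 h and by 1.32 ± 0.32 (adjusted p = 0.0037) at 48 h, each against 0 h. Against 12 h it was 2.06 ± 0.32 higher at 48 h (adjusted p = 0.000741, or 0.00261 in limma with the replicate number as a block). At 12 and 24 h it was not called against 0 h. PDF2.3, in contrast, was not called in any comparison of this fit, which has no replicate block. Its signals were 1838, 2578 and 502.6 at 48 h, against 5119, 2595 and 2172 at 0 h, and its log2 difference of -1.20 ± 0.76 had an adjusted p of 0.196 in limma. PDF2.6 stayed under the limit of the filter at every time and was not tested. At 0 h all 3 arrays were below the limit of the filter for PDF2.1 and above it for PDF2.2 and PDF2.3. How far the probes of one distinguish its neighbours was not tested.

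PDF1.2 lies beside PDF1.2c, which was not paired with a probe set, and has another near-identical copy, PDF1.2b, on a different chromosome. The probe set of PDF1.2b carries the suffix _x_at, which marks probes that may match other transcripts, so the 2 genes cannot be told apart with certainty. Its signals were 3509.8, 1235 and 3.49 at 0 h. They were 117.9, 224 and 153.4 at 12 h, 46.3, 53.3 and 160.3 at 24 h, 21.2, 6.19 and 77.9 at 36 h, and 21.0, 23.2 and 70.8 at 48 h. As for PDF1.2, the 0 h arrays differed most, with replicate 1 highest and replicate 3 lowest. PDF1.2b passed no test in limma, with a log2 difference of -2.93 ± 1.93 at 48 h against 0 h (adjusted p = 0.212). On 0 h replicate 3, the mesophyll markers summed to 153380 and the xylem markers to 897.9, each between those of the other 2 arrays. The phloem sum was the lowest of the 3 there (5050.2) and the guard cell marker FMA the highest (509.6). Whether the make-up of the disks had a part in the PDF1.2 and PDF1.2b signals was not tested.

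PDF1.1, a defensin of the same group as PDF1.2, was highest at 12 h. Its signals were 2.1, 1.06 and 3.67 at 0 h, 174.6, 490.0 and 1609 at 12 h, and 27.0, 150.7 and 565 at 24 h. They were 1.99, 59.6 and 143.9 at 36 h, and 1.96, 9.91 and 58.1 at 48 h. All 12 h arrays were above all others of 0 and 48 h, and replicate 1 was the lowest at each later time, as for PDF2.1.

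PDF1.1 rose by a log2 difference of 8.0 ± 1.64 at 12 h (adjusted p = 0.00157, limma) and 6.04 ± 1.64 at 24 h (adjusted p = 0.00848), both from 0 h signals below the limit of the filter. With an offset of 16 added to all signals, these log2 differences were 4.88 and 3.14. PDF1.1 passed the filter only through its 12 and 24 h means, so that selection favoured a rise from 0 h at these times. At 36 and 48 h it was not called against 0 h, with log2 differences of 3.68 and 2.37. As its 48 h mean (10.4) was under the limit of the filter, selection also favoured a fall from 12 h to 48 h. In that comparison PDF1.1 had a log2 difference of -4.05 with an offset of 16 and of -5.63 ± 1.64 without one (adjusted p = 0.0243, limma). That call was lost without replicate 2 or 3 of 12 h (-5.67 and -4.81) and without replicate 1 or 2 of 48 h (-4.43 and -5.60). In limma with the replicate number as a block, the adjusted p was 0.00191, and leaving out arrays was not repeated there. Between arrays of the same number PDF1.1 was lower at 48 h by a factor of 89.2, 49.5 and 27.7. Of the other defensins kept, PDF1.4 and PDF2.5 passed no test, with log2 differences of -0.06 and 0.60 at 48 h against 0 h. The 5 remaining defensin genes, PDF2.4, PDF2.6, PDF3.1, PDF3.2 and LCR24, did not reach the limit in any group mean and were not tested.

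**Figure D2:**
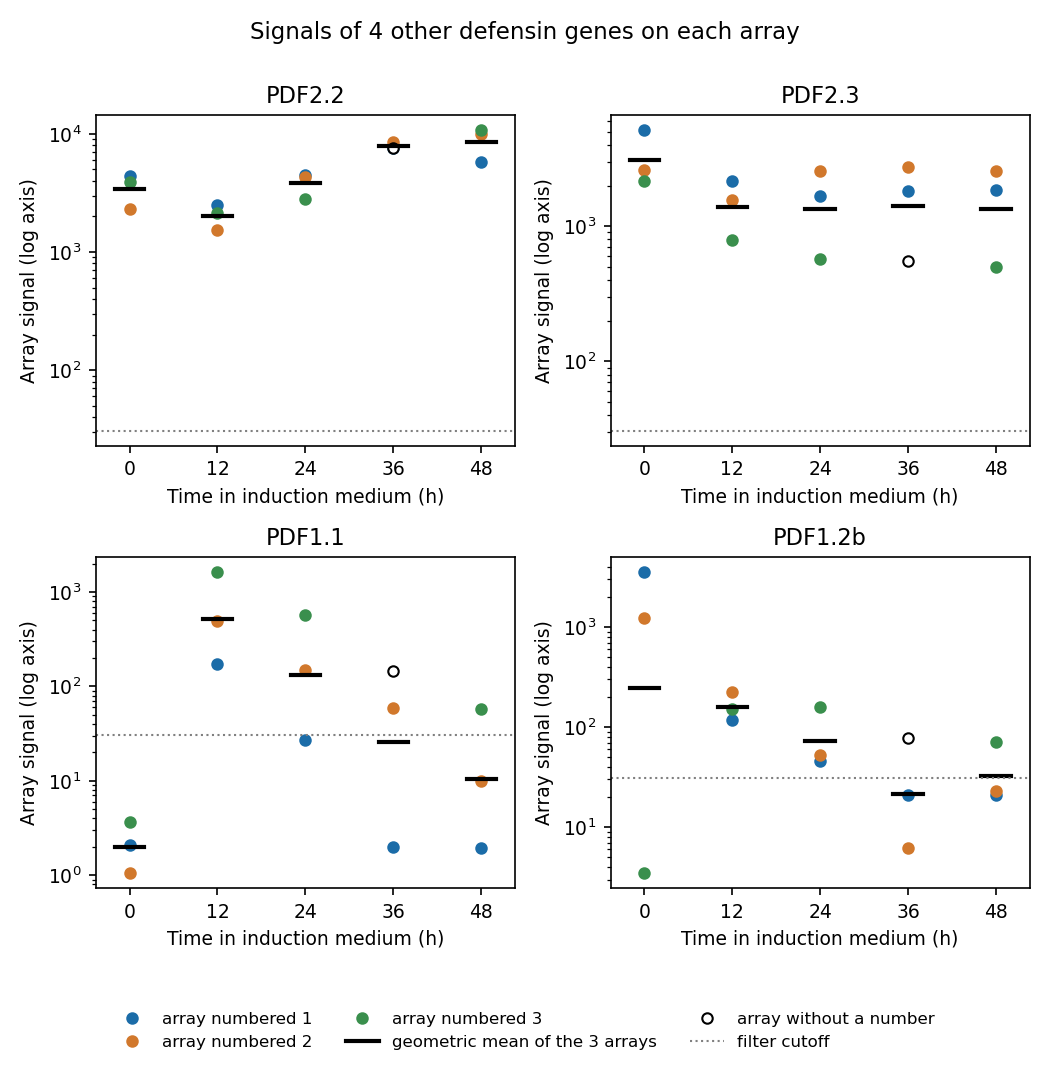
Signals of PDF2.2, PDF2.3, PDF1.1 and PDF1.2b (log axis) on each array at 0 to 48 h, with points, bars and the dotted line as for the 3 genes above. PDF2.2 lies between 7563 and 8495 at 36 h, PDF1.1 is highest at 12 h (174.6 to 1609) and PDF1.2b spans 3.49 to 3509.8 at 0 h.

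The thaumatin-like relatives of AT5G02140 went both ways. Of 19 genes paired with a probe set, 14 passed the filter. At 48 h against 0 h, 5 of these 14 rose (AT1G18250, AT2G28790, AT5G40020, AT1G77700 and AT4G38660), where 33.3% of all probe sets kept rose, and 2 fell (AT4G36010 and AT1G20030), where 23.7% of all fell. At 36 h the same 7 genes were called in the same directions (32.3% of all rose and 23.9% fell). At 12 h 2 rose and 4 fell, beside 23.7% and 21.9% of all, and at 24 h 2 rose and 3 fell, beside 27.4% and 22.2%.

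AT2G28790 was at 98.6, 87.1 and 90.1 at 0 h and at 1877, 923 and 376 at 12 h. It was at 4402, 2983 and 3039 at 48 h, and every later array was above every 0 h array. It rose by a log2 difference of 3.24 ± 0.53 at 12 h (adjusted p = 0.000294, limma) and 5.22 ± 0.53 at 48 h (adjusted p = 6.4e-06). Its difference of 1.98 ± 0.53 between 48 and 12 h (adjusted p = 0.016) was lost without 12 h replicate 3 (1.38) or 48 h replicate 1 (1.80). With the replicate number as a block in limma, the adjusted p of this comparison was 0.00357.

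AT1G18250, known as ATLP-1, had signals of 3844.5, 3394 and 3635 at 48 h, against 78.7, 118.3 and 107.3 at 0 h. Its log2 differences from 0 h were 3.25 (24 h), 4.81 (36 h) and 5.18 ± 0.56 (48 h) (adjusted p = 1.12e-05, limma), and all 3 were called. The smaller difference at 12 h (1.62 ± 0.56, adjusted p = 0.0325) was lost in 5 of the 6 fits that left out 1 of these arrays, where it lay between 1.3 and 1.74. In the sixth, without 12 h replicate 3, it was 1.97 and stayed called.

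AT5G40020 and AT1G77700, like AT5G02140, were higher mainly from 36 h on. AT5G40020 had signals of 118.8, 39.6 and 50.2 at 0 h, 559.8, 1315 and 586.5 at 36 h, and 1301, 3419 and 1959.8 at 48 h. It was not called at 12 or 24 h, and rose by 3.61 ± 0.50 at 36 h and 5.06 ± 0.50 at 48 h (adjusted p = 5.1e-06, limma, log2 difference from 0 h). AT1G77700 had signals of 53.5, 44.8 and 41.4 at 0 h, 364, 170.5 and 193.2 at 36 h, and 4506, 834 and 651 at 48 h. It rose by 2.31 ± 0.62 at 36 h and 4.86 ± 0.62 at 48 h (adjusted p = 3.48e-05). Unlike AT5G02140, both had 0 h signals above the limit of the filter on every array.

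AT4G38660 rose by a log2 difference of 2.63 ± 0.76 at 36 h (adjusted p = 0.0106, limma) and 2.46 ± 0.76 at 48 h (adjusted p = 0.015). AT4G36010 fell at each later time, to signals of 789, 726 and 649 at 48 h, against 2937, 4143 and 3959 at 0 h (log2 difference -2.34 ± 0.24, adjusted p = 6.78e-06). AT1G20030 fell as well, to 21.0, 42.8 and 49.0 at 48 h, against 176.5, 426 and 160.1 at 0 h. Its calls were less stable across arrays. The log2 difference of -2.70 ± 0.88 at 48 h (adjusted p = 0.0193) was lost without 0 h replicate 2 (-2.25) or 48 h replicate 1 (-2.32), and that at 24 h (-3.06) without 24 h replicate 3 (-2.16). At 36 h (-2.20, adjusted p = 0.0486) the call was lost on leaving out any 1 of the 3 arrays of 0 h, or 1 of replicates 2 and 3 of 36 h (between -2.46 and -1.53). At 12 h it was -3.44 ± 0.88 (adjusted p = 0.00653) and no such fit lost it.

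AT1G75800 fell by 1.13 ± 0.33 on the log2 scale at 12 h (adjusted p = 0.0132, limma), a call lost without 0 h replicate 1 (-0.84) or 12 h replicate 2 (-0.94). It fell by 1.34 ± 0.33 at 24 h (adjusted p = 0.00459) and was not called later. AT5G24620 was lower at 12 h (-1.88 ± 0.64, adjusted p = 0.03), a call lost in 5 of 6 fits that left out 1 array, with values between -1.93 and -1.58. Without 12 h replicate 1 it was -2.11 and stayed called. Between 48 and 12 h AT5G24620 rose by 2.61 ± 0.64 (adjusted p = 0.0107, or 0.00169 in limma with the replicate block). Its signals were 2024, 641 and 351 at 48 h against 175.5, 136.5 and 83.7 at 12 h.

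AT1G73620, AT4G38670, AT4G18250, AT1G70250 and AT1G19320 were not called against 0 h without a replicate block, and their log2 differences at 48 h lay between -1.62 and 0.38. A second probe set of AT1G70250, not used for the test, had signals of 52.0, 27.6 and 41.9 at 48 h, against 6.45, 6.32 and 58.9 at 0 h, whereas those of the first were 42.5, 62.8 and 98.9 at 48 h, against 140.1, 90.4 and 156.9 at 0 h. OSM34, the osmotin gene of this family, and AT1G75050, AT2G17860, AT2G24810 and AT4G36000 did not reach the limit of the filter and were not tested.

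**Figure D3:**
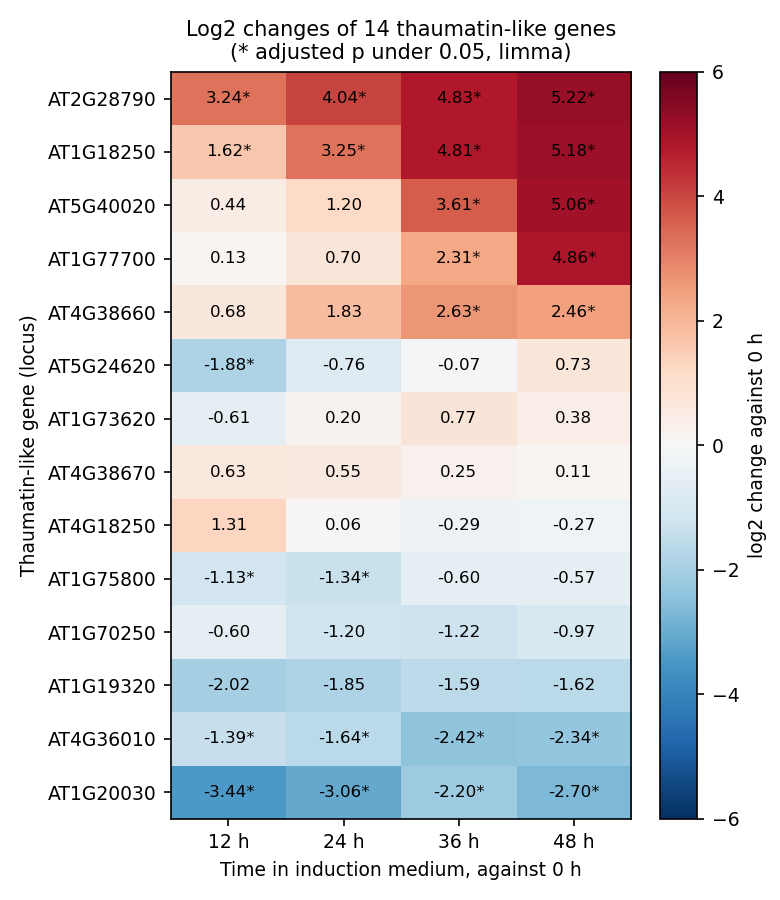
Log2 difference from 0 h at 12, 24, 36 and 48 h for 14 thaumatin-like genes other than AT5G02140, ordered by the value at 48 h, with red for higher and blue for lower signals than at 0 h and an asterisk where the adjusted p in limma was under 0.05. Values at 48 h range from 5.22 for AT2G28790 to -2.70 for AT1G20030.

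Over both families, 20 genes other than the 3 described were tested, and calls went in both directions at each time. At 12 h 3 rose and 4 fell, where 23.7% of all probe sets kept rose and 21.9% fell. Without 12 h replicate 2 only 4 were called, since AT1G18250, AT1G75800 and AT5G24620 no longer passed. At 24 h 3 rose and 3 fell, with 27.4% and 22.2% of all probe sets. At 36 h 6 rose and 2 fell, with 32.3% and 23.9% of all. At 48 h again 6 rose and 2 fell, with 33.3% and 23.7% of all, and the median log2 difference was 0.25 over the 20 genes and 0.22 over all probe sets.

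Between 48 and 12 h, 6 of the 20 genes rose (PDF2.2, AT1G18250, AT1G77700, AT2G28790, AT5G24620 and AT5G40020) and 2 fell (PDF1.1 and AT4G36010). The filter favoured the fall of PDF1.1. Of all probe sets 16.5% rose and 9.87% fell in this comparison. The median was 0.86 over the 20 genes and 0.05 over all. With each array centred on its own median, 39.4% of all calls between 48 and 12 h were upward, and after quantile normalization 52.1%, against 62.6% without either.

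Other genes of the jasmonate, ethylene and defence pathways were measured only in part, since most listed loci had no probe set paired with them. Among genes of jasmonate synthesis 1 of 15 was measured. This was OPCL1, the ligase that activates a precursor of jasmonate, and it fell. Its signals were 403, 701 and 934.5 at 48 h, against 6990.1, 14846 and 10067 at 0 h, with a log2 difference of -3.98 ± 0.48 (adjusted p = 2.53e-05, limma). It was also called lower at the other 3 times (-2.42 at 12 h, -3.19 at 24 h, -3.55 at 36 h). On 0 h replicate 3, where PDF1.2 was lowest, OPCL1 lay between the other 2 arrays. MYC3 (137.1, against 331 and 436 on the other 2), MYC4 (81.1, against 194.2 and 219.0) and EIN3 (1562, against 1769.8 and 2452) were lowest there. GRX480 was highest there (2958, against 1090 and 2581). Any link of these genes to the PDF1.2 signals was not tested.

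Of 20 genes of jasmonate signalling 2 were measured, the transcription factor genes MYC3 and MYC4. Neither passed limma's test in any comparison, with log2 differences of -0.64 ± 0.42 and -0.67 ± 0.41 at 48 h against 0 h (adjusted p = 0.215 and 0.184). Without 0 h replicate 3 both were called lower at 24, 36 and 48 h. EIN3, the 1 measured of 20 ethylene and ERF genes and the main transcription factor of ethylene signalling, fell to 905, 972 and 952 at 48 h, against 1769.8, 2452 and 1562 at 0 h (log2 difference -1.01 ± 0.21, adjusted p = 0.00114, limma). GRX480, a glutaredoxin gene of the salicylate response, was not called in the fit without a replicate block, with a log2 difference of -1.08 at 48 h against 0 h.

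Among 5 of 15 listed genes of other defence proteins, 3 rose at 48 h, where 33.3% of all probe sets kept rose, and THI2.1 and THI2.2 were not called. ChiC, a chitinase gene, had signals of 132, 507 and 955 at 12 h and 72.0, 210.5 and 248.6 at 48 h, against 8.89, 4.14 and 33.3 at 0 h. It rose by a log2 difference of 5.23 ± 0.98 at 12 h (adjusted p = 0.00085, limma) and 3.86 ± 0.98 at 48 h (adjusted p = 0.00491), or by 3.86 and 2.58 with an offset of 16. ChiC passed the filter only through its means from 12 h on, so that selection favoured a rise from 0 h. CHI, a gene of the chitinase family, rose by 4.86 ± 1.46 at 12 h (adjusted p = 0.0158), a call lost without 12 h replicate 2 (4.1), and by 5.23 ± 1.46 at 24 h (adjusted p = 0.00976). At 36 h it was at 4.79 (lost without 36 h replicate 3, 3.79) and at 48 h at 4.46 (lost without 48 h replicate 2, 4.32, or replicate 3, 3.76). As for PDF2.1 and PDF1.1, replicate 1 gave the lowest signal of CHI and ChiC at all 4 later times.

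PR-1-LIKE, a relative of the pathogenesis-related gene PR1, rose to 970.5, 911 and 237.9 at 48 h, against 4.31, 49.1 and 13.9 at 0 h (log2 difference 5.37 ± 0.89, adjusted p = 0.000257, limma). It was also called higher at 24 h (3.90) and 36 h (4.85), but not at 12 h. With an offset of 16, the log2 differences at 24, 36 and 48 h were 2.76, 3.66 and 4.17. PR-1-LIKE passed the filter only through its means of these 3 times, so that selection favoured a rise from 0 h. THI2.2, a thionin gene and thus another small cysteine-rich peptide of defence, fell by 4.19 ± 0.87 on the log2 scale at 12 h (adjusted p = 0.00178) and by 3.87 ± 0.87 at 36 h (adjusted p = 0.00235), or by 2.36 and 2.27 with an offset of 16. Its call at 24 h (-2.92) was lost without 0 h replicate 2 (-2.50) or 24 h replicate 3 (-1.93). Only its 0 h signals, 99.0, 171.9 and 53.3, were all above the limit of the filter. THI2.2 passed the filter only through its 0 h mean (96.8, against 24.7 or less at later times), so that selection favoured a fall from 0 h.

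**Figure D4:**
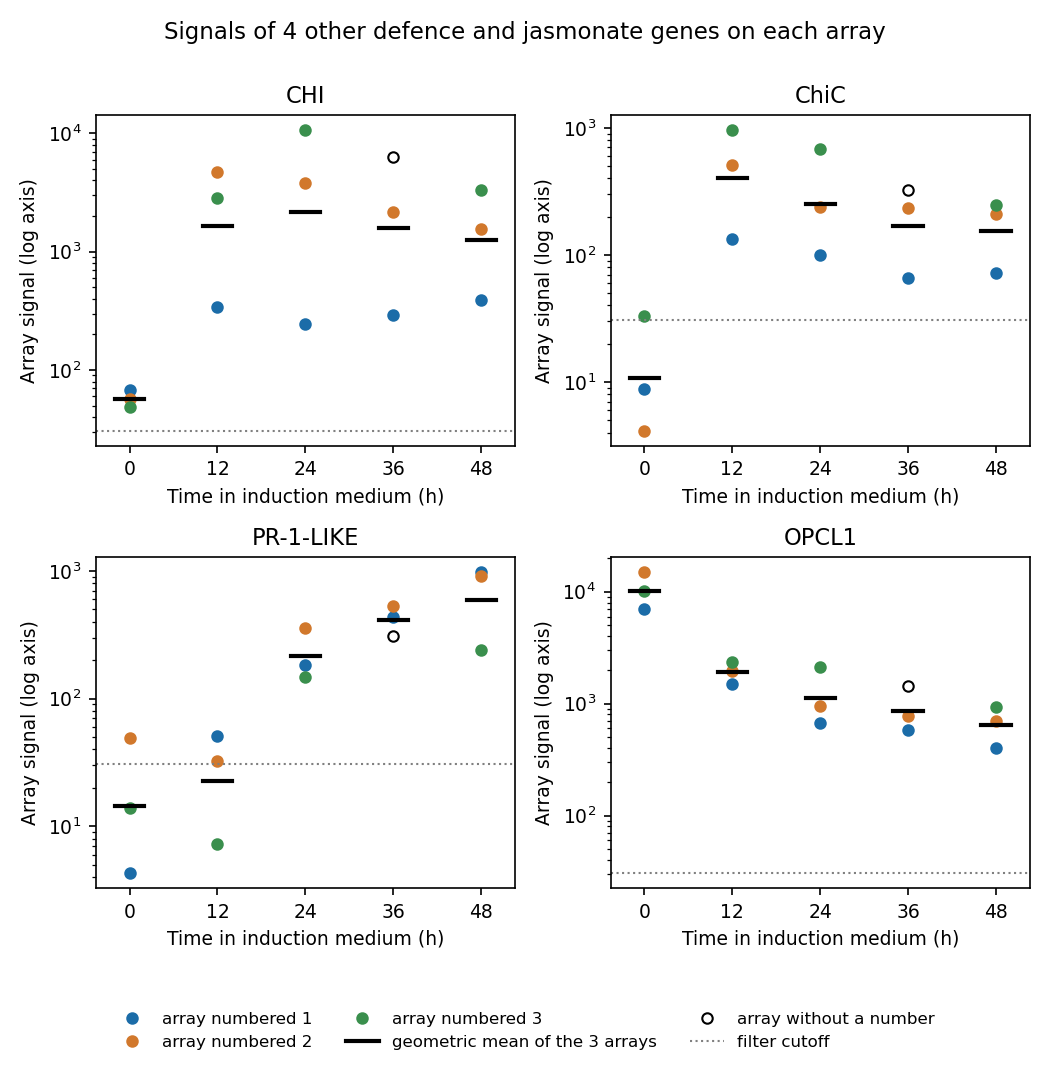
Signals of the chitinase genes CHI and ChiC, of PR-1-LIKE and of the jasmonate synthesis gene OPCL1 (log axis) on each array at 0 to 48 h, with points, bars and the dotted line as in the plot of the 3 genes. ChiC lies between 132 and 955 at 12 h, PR-1-LIKE between 237.9 and 970.5 at 48 h, and OPCL1 is lower at every later time than at 0 h.

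For each of the 3 genes, the 5 probe sets with the most similar course were found by Pearson's r of log2 signals over the 15 arrays, among 10011 kept probe sets of 1 gene. As the arrays of a time share their sampling, these values are a description only. PDF2.1 was closest to AT5G52740 (r = 0.973), AT3G08990, AT2G18490, AT1G14130 and the histone H2B gene HTB4 (r = 0.953). AT5G02140 was closest to ATL4H (r = 0.976), AT3G18670, AT2G41770, AT5G40980 and AT5G62950 (r = 0.963). PDF1.2 was closest to AT5G02240 (r = 0.936), AT3G27110, AT3G21360, AT3G44100 and AT1G28140 (r = 0.914). No defensin or thaumatin-like gene was among these 15. Besides the 3 genes only 20 of these families were kept, so few among 10011 probe sets that nothing is read from this.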

How the data were processed

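RNA of 15 samples was measured on 1-colour Affymetrix arrays. What the authors deposited are linear intensities. The submitters' processing notes name GCOS and MAS5 without a version. The array scaling hides a change shared by most transcripts, and no detection calls were used. The number of arrays limits the precision.

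From these intensities log2 values were taken without an offset. The 64 control probe sets were left out, and the filter was set at the 30th percentile of group means (30.7). Tests used limma 3.58.1 in R 4.3.3 on the 5 group means of all 15 arrays (10 residual degrees of freedom, two-sided, Benjamini-Hochberg over 17829 probe sets, called at an adjusted p under 0.05). The fit was run on simulated data with noise independent between arrays, which does not cover the correlation between arrays of the same number. The 3 genes themselves were not tested.

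Probe sets were named through the platform annotation, which gave 1 gene for 13513, several for 503 and none for 8730. Loci and neighbours came from the gene table of TAIR10.1. A gene with several probe sets was represented by the one with the highest mean. The 3 genes, the family, pathway and cell type lists and the tests were chosen with earlier results of these data known. Named were the 3 genes, every paired defensin and thaumatin-like gene, from each pathway list up to 2 called genes, those that changed most at 48 h (without any call, the gene that changed most), and the 5 most similar probe sets of each gene. ChiC, THI2.1, THI2.2, MYC3 and the cell type markers were named beyond this rule, after their values were seen. Thionin was searched as a whole word.

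The third 36 h array has no number in its title and is called replicate 3 by order alone. Whether numbers pair arrays was checked by correlating deviations from group means. For 48 and 12 h all 3 same-number correlations lay between 0.126 and 0.199 and for 24 and 12 h between 0.147 and 0.449, so these arrays count as paired. With 36 h only 2 numbered pairs exist, at 0.292 and 0.496 with 24 h and at 0.324 and 0.476 with 48 h; the pairing comes from the shared numbers and the data, not from a stated batch. Against 0 h the values were 0.014 to 0.135, with some under 0.1, while those of different numbers lay between -0.143 and 0.051. Whether numbers pair the arrays with 0 h is thus not settled. No batch is named in the labels. Sequences were not used here.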

Additional observations from a re-analysis of the deposited data

How the results depend on the processing

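The directions of the 3 genes' differences stayed as given under the settings run for them (median centring, quantile normalization, an offset, the replicate block, leaving out 1 array and a floor), except that AT5G02140 at 12 h was at 0 once signals were raised to the limit of the filter. Sizes depended on the treatment of dim signals. With an offset of 16, the log2 differences from 0 h at 12, 24, 36 and 48 h were 3.94, 4.72, 6.90 and 7.91 for PDF2.1 and 0.30, 1.63, 4.42 and 5.64 for AT5G02140, which stood at 5.35 for 48 against 12 h. With signals raised to the limit of the filter, chosen after the data were seen, they were 3.55, 4.36, 6.58 and 7.59 for PDF2.1 and 0, 0.75, 3.54 and 4.82 for AT5G02140, with 4.82 for 48 against 12 h. Leaving out 1 array gave 4 to 8 called family genes at 12 h against 0 h (7 with all arrays, 4 without 12 h replicate 2). It gave 2981 to 4059 called probe sets for 48 against 12 h (4707 with all arrays, 2981 without 48 h replicate 1). With the replicate block, 8, 9, 9 and 11 family genes were called against 0 h at the 4 times, and AT1G20030 at 36 h (-1.58) was not among them. Whether the numbers pair the arrays with those of 0 h is not settled, as the same-number correlations were low (0.014 to 0.135). Calls gained with the block against 0 h were PDF2.3 at 12, 24 and 48 h (adjusted p = 0.0348, 0.0276 and 0.0234, limma) and PDF1.1 at 36 and 48 h (0.0219 and 0.0451). AT1G70250 was gained at 24, 36 and 48 h (0.0107, 0.0287 and 0.0248) and AT4G38660 at 24 h (0.0388). GRX480 was gained at 24, 36 and 48 h (0.0141, 0.0117 and 0.0154) and FMA at 24 h (0.0484). Between 48 and 12 h the block called 8 family genes, as without it, and 5524 probe sets; it changed no call of a family gene there. Centring arrays on their medians moved the median difference of all probe sets between 48 and 12 h to -0.22, against 0.05 as reported, and that between 48 and 0 h to -0.003, against 0.22, and lost no call of a single gene named above. Of the recomputed values of single family and list genes that were called, 810 kept their call and 41 lost their call, 36 of them in fits with 1 array fewer. The cause was not tested.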

Other observations

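The replicate 1 arrays stood apart in some thaumatin-like genes in the opposite direction to PDF2.1. AT1G18250, AT1G77700, AT2G28790 and AT5G24620, 4 of the 14 tested, had their highest signal on replicate 1 at all 4 later times, as had 1156 probe sets (6.48% of those kept). AT1G70250 and AT4G18250 had their lowest there. AT4G18250, for instance, was at 1.62, 188.2 and 142.0 at 12 h. Among the probe sets most similar to PDF2.1, AT1G14130 had a geometric mean of 6909.9 at 48 h against 388 at 0 h, and AT5G52740 one of 1617 against 24.7. Among those most similar to AT5G02140, AT5G40980 had one of 5163 at 48 h against 150.8 at 0 h, and ATL4H one of 1976 against 62.8. Others differed less, such as AT3G08990 (634.7 against 183.2) for PDF2.1 and AT5G62950 (815.2 against 286.0) for AT5G02140. All were picked for a course like that of a rising gene, so their rise follows from that choice.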
